A study of Mus musculus with 12 samples.

Results

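Fatty acid oxidation and ketone body formation were described here through 43 genes, and 42 of them were measured in the livers of 4 mouse genotypes. The genes were chosen by symbol, and each was read from the probe set with the highest mean over all 12 arrays among those annotated with that symbol alone. The 43rd gene, Acsl1, had no such probe set and was not analysed here. The 42 measured genes, out of 5856 genes in the table, comprised 22 that act in mitochondria, 12 that act in peroxisomes and 8 that act in both or elsewhere in the cell.

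The study compared livers of male C57BL/6 mice aged 8 weeks that differed in activity of Nrf2 (gene symbol Nfe2l2), a transcription factor for cytoprotective genes that Keap1 holds in the cytosol and marks for degradation. Nrf2-null mice lack Nrf2, wild-type mice carry neither altered allele, and in Keap1-KD mice Keap1 is lowered in every tissue, so that Nrf2 activity is raised. Keap1-HKO mice came from Keap1-KD mice bred to mice with Cre under the albumin promoter, which is active in hepatocytes, so their other liver cells keep the Keap1-KD state. The Nrf2-null and Keap1-KD lines had been bred back to C57BL/6, whereas the background of the Keap1-HKO cross was not given in the sources used here. Each genotype had 3 mice with 1 array per mouse, read as gcRMA log2 values. In bulk liver, fewer cells of a type and less RNA per cell cannot be told apart.

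Long-chain fatty acids are activated to coenzyme A esters, carried into mitochondria as carnitine esters, and shortened by repeated dehydrogenation, hydration, dehydrogenation and thiolysis, with electrons passed on through the electron transfer flavoprotein. Peroxisomes shorten very long and branched chains by a parallel set of enzymes. In fasting liver the acetyl-CoA formed feeds ketone body synthesis, and many of these genes are known targets of the nuclear receptor PPARalpha, whereas Nrf2 acts through antioxidant response elements (AREs).

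The labels were checked on the targeted genes. Nfe2l2 read 2.29 to 2.46 on the Nrf2-null arrays and 8.81 to 8.94 on the wild-type arrays, and Keap1 read 7.80 to 7.97 in wild-type, 5.59 to 5.92 in Keap1-KD and 3.34 to 3.39 in Keap1-HKO livers. Nrf2-null replicate 1 and Keap1-HKO replicate 1 stood apart from the other arrays of their genotypes: 12.5% and 19.9% of all genes read more than 1 log2 unit below the mean of the other 2 arrays, against at most 1.74% on the other 10 arrays. The 10 measured hepatocyte markers, of 12 listed, had a log2 summed intensity of 18.66 to 18.80 on the Keap1-HKO arrays. All arrays of the other genotypes read higher, at 18.84 to 18.95. The median difference of these markers from wild-type was -0.22 in Keap1-HKO livers, against -0.01 over all genes. The 10 measured pancreas acinar markers, of 14 listed, summed to 17.6 at most in Keap1-HKO, where replicates 2 and 3 carried them at medians of 14.3 and 11.3, and in the other genotypes to 8.91 to 10.4, nearly all of it from Cela1. The 8 measured skeletal muscle markers, of 12 listed, had medians of 10.7 on wild-type replicate 2, 11.00 on Keap1-HKO replicate 2 and 9.66 on Keap1-HKO replicate 3, and of 2.38 to 3.04 on the other 9 arrays. The 5 measured Kupffer cell and macrophage markers, of 8 listed, summed to 12.11 to 12.33 in wild-type and, without overlap, to 11.98 to 12.06 in Keap1-KD livers. They summed to 12.09 to 12.40 in Nrf2-null and 11.89 to 12.17 in Keap1-HKO livers. The single measured adipocyte marker of 8, Fabp4, read 5.73 to 7.48 in Nrf2-null livers, below wild-type at 7.53 to 8.63. Fabp4 read 7.40 to 7.93 in Keap1-KD and 6.25 to 8.94 in Keap1-HKO livers. The part of these markers in the results below was not tested. Wild-type replicate 2 was the lowest of the 3 wild-type arrays for 24 of the 42 genes. The other genotypes each had such an array: Keap1-KD replicate 1 was lowest for 28 genes, Keap1-HKO replicate 2 for 24 and Nrf2-null replicate 2 for 23. Leaving out wild-type replicate 2 changed the sign of differences from wild-type, or moved them by more than 1.5 times. That held for 15 genes in Nrf2-null, 26 in Keap1-KD and 22 in Keap1-HKO livers. Values without wild-type replicate 2 are given beside some of these differences.

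Upstream sequences are shown for 3 genes that carry the main patterns: Acox2, whose mRNA followed the genotype order, and Ehhadh and Acot1, which read highest in Nrf2-null livers. Each line gives the 250 bases before an annotated start (RefSeq, GRCm38.p6), 5′ to 3′ on the gene's strand, and capitals mark matches to the ARE core TGACNNNGC on either strand. The Acox2 window is chr14:8259020-8259269, minus strand, the Ehhadh window is chr16:21787835-21788084, minus strand, and the Acot1 window is chr12:84009252-84009501, plus strand.
Acox2: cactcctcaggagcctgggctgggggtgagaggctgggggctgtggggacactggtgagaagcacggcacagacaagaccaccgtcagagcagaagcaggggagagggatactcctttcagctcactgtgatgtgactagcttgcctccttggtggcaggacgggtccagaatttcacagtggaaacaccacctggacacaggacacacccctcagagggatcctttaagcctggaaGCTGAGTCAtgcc
Ehhadh: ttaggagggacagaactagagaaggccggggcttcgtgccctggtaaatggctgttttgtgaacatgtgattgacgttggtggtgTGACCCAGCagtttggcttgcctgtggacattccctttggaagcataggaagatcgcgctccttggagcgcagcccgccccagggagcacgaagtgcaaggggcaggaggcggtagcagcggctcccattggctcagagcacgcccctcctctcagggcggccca
Acot1: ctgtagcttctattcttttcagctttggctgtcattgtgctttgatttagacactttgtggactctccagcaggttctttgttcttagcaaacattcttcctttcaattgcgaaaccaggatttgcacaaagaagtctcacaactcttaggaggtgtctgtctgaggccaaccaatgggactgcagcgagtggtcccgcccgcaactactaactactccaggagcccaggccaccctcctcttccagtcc
RefSeq promoters were found for 36 of the 43 genes, with 40 annotated starts, and 2 genes held the core. In Acox2 it read TGACTCAGC on the opposite strand, at bases -13 to -5 from the start shown and at -193 to -185 from its other annotated start, and in Ehhadh it read TGACCCAGC at -165 to -157. These were 3 of 40 windows (7.5%), against 10.2% of all 32851 promoters in the table, and Acot1 had none. A match is a run of letters and was not tested as a binding site.

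No gene of the 42 passed the test in any of the 3 comparisons with wild-type (limma, Benjamini-Hochberg adjusted p under 0.05 over 5856 genes). The same test called 0.41% of all genes in Nrf2-null, 0.0683% in Keap1-KD and 3.94% in Keap1-HKO livers. At an unadjusted p under 0.05, 12 of the 42 were higher and 0 lower in Nrf2-null livers, against 3.3% and 3.62% of all genes. In Keap1-KD livers 4 were higher and 0 lower, against 1.42% and 1.13%, and in Keap1-HKO livers 6 were higher and 3 lower, against 9.26% and 9.39%. Across the ordered genotypes (Nrf2-null, wild-type, Keap1-KD, Keap1-HKO), a linear trend was called for 9.2% of all genes and for 1 of the 42, Acox2.

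Read array by array, the group was displaced upward from wild-type in both Nrf2-null and Keap1-KD livers. All 3 Nrf2-null arrays read above all 3 wild-type arrays for 20 of 42 genes (47.6%), against 12.1% of all genes, and below them for 1 gene, Acadsb (2.38%), against 8.76%. In Keap1-KD livers 12 genes (28.6%) lay above wild-type, against 7.02%, and 1, Phyh, lay below, against 8.21%. All 12 also lay above wild-type in Nrf2-null livers, and 1.43% of all genes lay above in both genotypes. In Keap1-HKO livers 8 genes (19.0%) lay above, against 12.7%, and 6 (14.3%) lay below, against 14.9%. The median log2 difference of the 42 genes from wild-type was 0.28 for Nrf2-null, 0.14 for Keap1-KD and 0.01 for Keap1-HKO livers, and 0.02, -0.01 and -0.01 over all genes. Without wild-type replicate 2 the medians were 0.22, 0.09 and -0.02, with 9, 1 and 3 genes higher at an unadjusted p under 0.05, against 1.81%, 0.837% and 6.32% of all genes. Without both arrays that stood apart, 23, 12 and 9 genes lay above wild-type, against 18.8%, 7.02% and 18.3% of all genes, since fewer arrays overlap less. The authors kept a probe set whose mean intensity exceeded 100 in at least 1 genotype, and Crat, Pdk4 and Acot2 had a mean under 100 in some genotype, so that they entered through the genotypes where they are high. Over the other 39 genes, a subset taken after the values were seen, 18, 11 and 6 lay above wild-type, against 12.1%, 6.66% and 11.6% of all genes with every genotype mean at or over 100. These 3 comparisons share the wild-type arrays, and the counts are descriptions of the measured genes with no test.

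**Figure D1:**
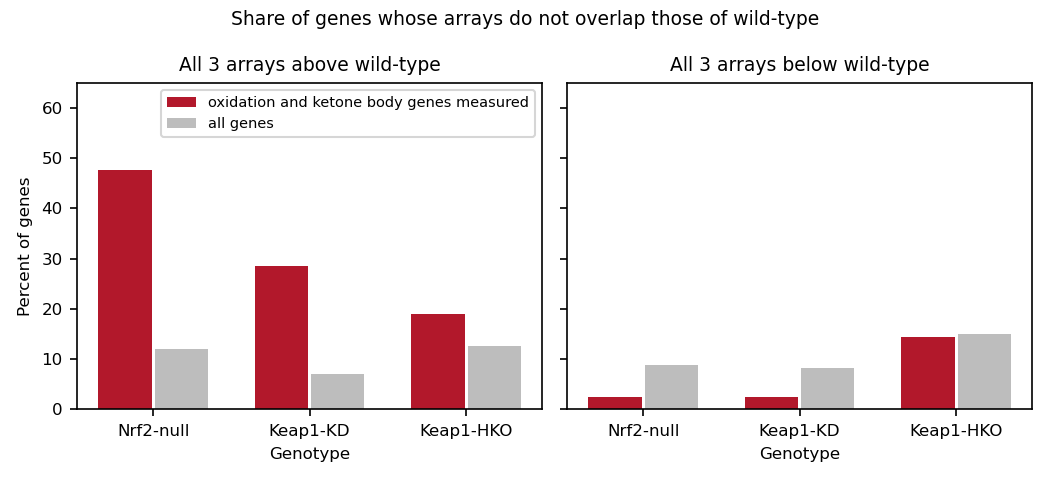
Percent of genes (vertical axis) whose 3 arrays of a genotype all lay above (left) or all below (right) the 3 wild-type arrays, for the 42 measured fatty acid oxidation and ketone body genes (red) and all 5856 genes (grey). In Nrf2-null livers 47.6% of the group lay above wild-type, against 12.1% of all genes, and in Keap1-KD livers 28.6%, against 7.02%.

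Nrf2-null and Keap1-HKO livers share no arrays and could be set against each other directly. All Nrf2-null arrays read above all Keap1-HKO arrays for 13 of the 42 genes (31.0%), namely Cpt1a, Acsl5, Acadl, Etfdh, Decr1, Eci2, Acat1, Acot2, Acot1, Ehhadh, Phyh, Hacl1 and Ephx2, against 11.1% of all genes. They read below for 3 genes (7.14%), Hadh, Vnn1 and Acox2, against 9.32%. The Nrf2-null mean was the highest of the 4 genotypes for 22 of the 42 genes (52.4%), against 30.8% of all genes. These counts include Acot2, and same-number arrays of the 2 genotypes deviated together from their genotype means, with correlations of 0.685 to 0.787 over all genes (3 pairs).

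**Figure D2:**
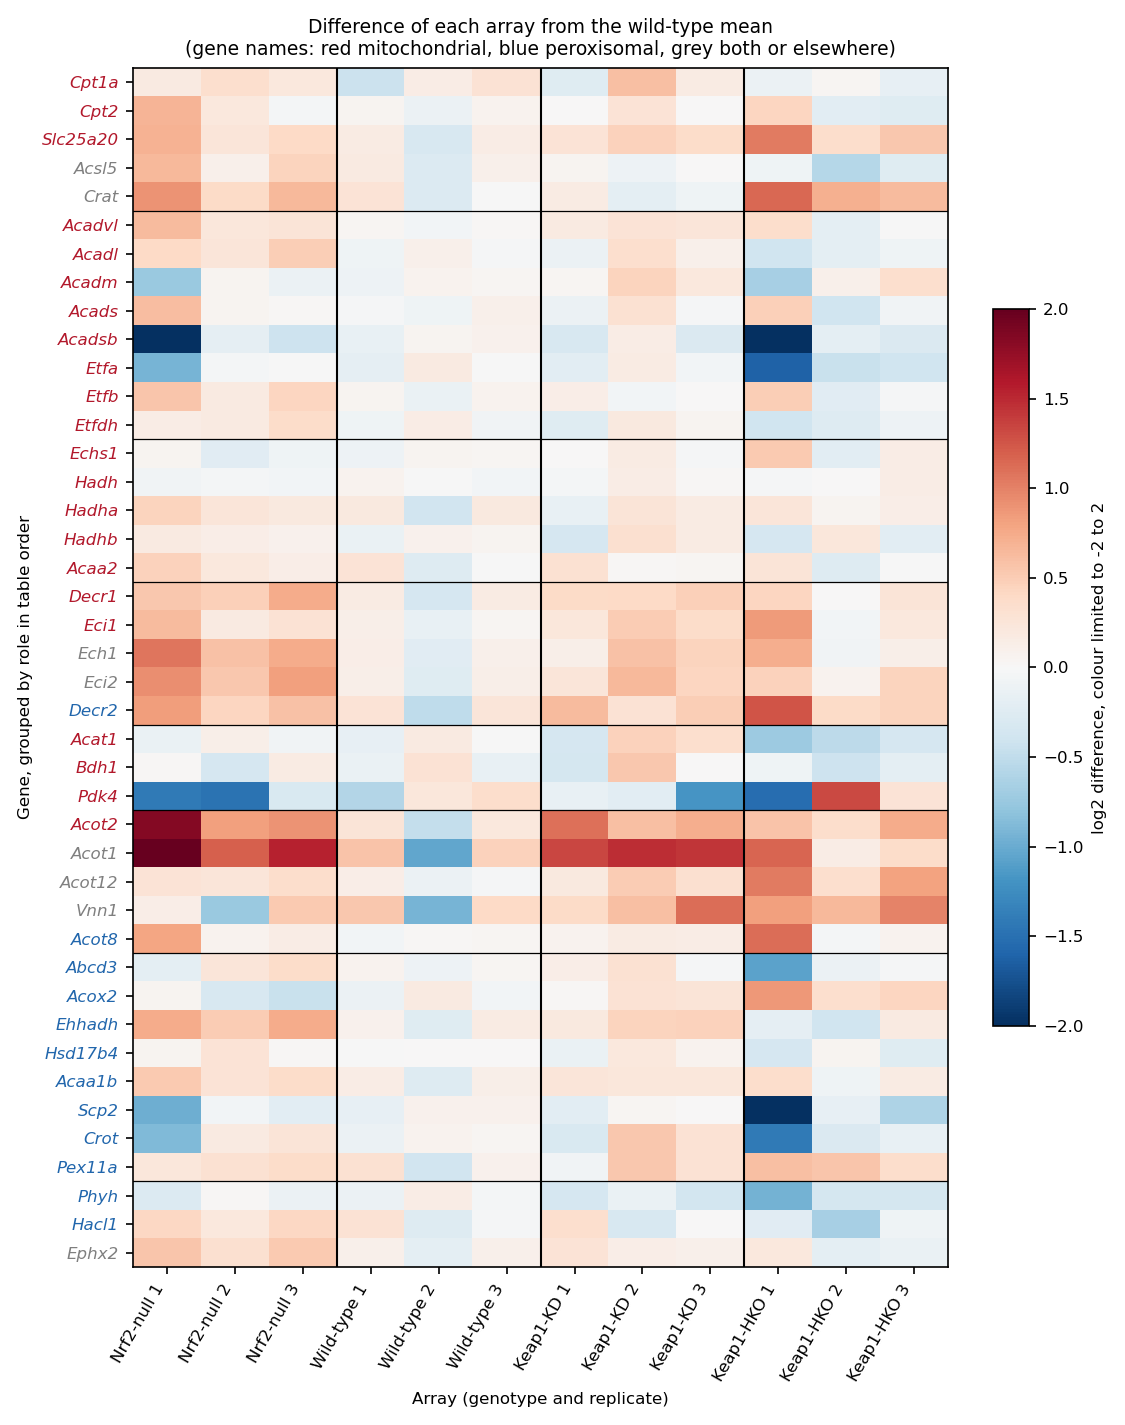
Log2 difference of each array (columns, 3 per genotype) from the wild-type mean for each gene (rows, grouped by role), in red above and blue below, with colours limited at 2 log2 units. The red block on the Nrf2-null arrays covers the auxiliary enzymes and thioesterases, and Acadsb, Etfa, Scp2 and Crot are blue on replicate 1 of both Nrf2-null and Keap1-HKO.

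The first role was activation of fatty acids and their entry into mitochondria as carnitine esters, with 5 measured genes. Slc25a20, the carnitine-acylcarnitine carrier of the inner membrane, read 12.34, 11.89 and 12.04 in Nrf2-null, 11.81, 11.33 and 11.79 in wild-type, 11.92, 12.10 and 12.01 in Keap1-KD, and 12.68, 11.99 and 12.19 in Keap1-HKO livers. All 9 arrays of the altered genotypes therefore lay above the wild-type arrays. The differences from wild-type were 0.45 ± 0.21, 0.37 ± 0.21 and 0.64 ± 0.21 (log2, SE, n = 3 per group), with limma adjusted p of 0.74, 1 and 0.14, and 0.29, 0.21 and 0.48 without wild-type replicate 2. Crat, carnitine acetyltransferase, which moves short acyl groups between carnitine and coenzyme A, read 7.34, 6.82 and 7.08 in Nrf2-null and 7.59, 7.16 and 7.07 in Keap1-HKO livers, above wild-type at 6.71, 6.17 and 6.44, whereas Keap1-KD livers, at 6.61, 6.24 and 6.36, overlapped wild-type. The wild-type and Keap1-KD means of Crat, at intensities of 87.8 and 85.2, lay under 100, so Crat entered the table through the 2 genotypes where it is high. Against an intensity of 100, Keap1-HKO livers were at least 1.57-fold and Nrf2-null livers at least 1.37-fold higher (limma adjusted p = 0.055 and 0.44), given as a description. Cpt1a, the outer-membrane carnitine palmitoyltransferase that sets the rate of entry, overlapped wild-type in every genotype, with differences of 0.24, 0.17 and -0.08 (SE 0.23). Cpt2 and the acyl-CoA synthetase Acsl5 differed from wild-type by -0.30 to 0.40, and neither had a genotype clear of the wild-type arrays.

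The second role was the acyl-CoA dehydrogenases, which begin each round on chains of a given length, and the proteins that take up their electrons, with 8 measured genes. Acadl, the long-chain dehydrogenase, read 11.73, 11.58 and 11.83 in Nrf2-null livers, all above wild-type at 11.25, 11.44 and 11.31, and 10.94, 11.14 and 11.25 in Keap1-HKO livers, all below the Nrf2-null arrays. Its log2 differences from wild-type were 0.37 ± 0.15 in Nrf2-null and -0.22 ± 0.15 in Keap1-HKO livers (limma adjusted p = 0.65 and 0.42). Acadm, the medium-chain dehydrogenase, differed by -0.27, 0.23 and -0.08 (SE 0.27) and overlapped wild-type throughout. Etfa, a subunit of the electron transfer flavoprotein, read 10.64, 11.82 and 11.85 in Keap1-HKO livers, below wild-type at 12.08, 12.45 and 12.25, a difference of -0.82 ± 0.34 (limma adjusted p = 0.23), which was -0.42 without both arrays that stood apart. Its partner Etfb read above wild-type on the 3 Nrf2-null arrays, by 0.39 ± 0.19 (adjusted p = 0.77). Acadsb, the dehydrogenase of short branched chains from isoleucine, read 6.89 on Nrf2-null replicate 1 and 6.88 on Keap1-HKO replicate 1, and 9.31 to 9.88 on the other 10 arrays. Its differences of -1.15 in Nrf2-null and -1.11 in Keap1-HKO livers were -0.30 and -0.24 without those arrays. Acads, the short-chain dehydrogenase, overlapped wild-type throughout, with differences of 0.23, 0.06 and -0.00. Of the 8 genes, 4 lay above wild-type in Nrf2-null livers (Acadvl, Acadl, Etfb and Etfdh), 1 in Keap1-KD livers (Acadvl) and 0 in Keap1-HKO livers, where 3 lay below (Acadsb, Etfa and Etfdh).

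The core of the mitochondrial spiral, hydration, dehydrogenation and thiolysis, had 5 measured genes and the narrowest range. Hadha, a subunit of the mitochondrial trifunctional protein, read 10.05, 9.85 and 9.80 in Nrf2-null livers, against 9.79, 9.23 and 9.80 in wild-type livers, so that the groups met at 9.80 and were barely apart. It differed from wild-type by 0.30, 0.09 and 0.14 (SE 0.18), and by 0.11, -0.10 and -0.05 without wild-type replicate 2. Acaa2, the mitochondrial thiolase, read 13.02 to 13.75 on the 12 arrays and overlapped wild-type in every genotype, with differences of 0.27, 0.12 and -0.00 (SE 0.18), or 0.14, -0.01 and -0.14 without wild-type replicate 2. Across the 5 genes and 3 comparisons the differences ran from -0.11 to 0.30, and the lowest adjusted p was 0.60. Hadh, the hydroxyacyl-CoA dehydrogenase, read 13.91 to 14.13 on all 12 arrays and had the smallest spread within genotypes of the 42 genes (pooled SD 0.08 log2).

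The auxiliary enzymes, which move or remove double bonds so that unsaturated chains can be oxidised, were above wild-type on all Nrf2-null arrays for 5 of 5 genes, in Keap1-KD for 4 of 5 and in Keap1-HKO for 1 of 5. Eci2, an enoyl-CoA isomerase of mitochondria and peroxisomes, read 11.32, 10.92 and 11.21 in Nrf2-null, 10.50, 10.15 and 10.51 in wild-type, 10.64, 11.04 and 10.82 in Keap1-KD, and 10.85, 10.45 and 10.83 in Keap1-HKO livers. The Nrf2-null and Keap1-KD arrays cleared the wild-type arrays, and the Keap1-HKO arrays overlapped them. The difference in Nrf2-null livers was 0.76 ± 0.18 log2 (95% interval 0.37 to 1.16), the lowest adjusted p of the 42 genes in that comparison (limma, 0.18). Ech1, a dienoyl-CoA isomerase, read 13.04, 12.55 and 12.71 in Nrf2-null livers against 12.10, 11.74 and 12.06 in wild-type livers, a difference of 0.80 ± 0.23 (limma adjusted p = 0.31). Keap1-KD and Keap1-HKO livers overlapped wild-type for Ech1, at differences of 0.39 and 0.25, or 0.27 and 0.14 without wild-type replicate 2. The other 3 genes, the dienoyl-CoA reductases Decr1 and Decr2 and the isomerase Eci1, were higher by 0.37 to 0.62 in Nrf2-null livers, with no call, and by 0.29 to 0.41 without wild-type replicate 2.

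**Figure D3:**
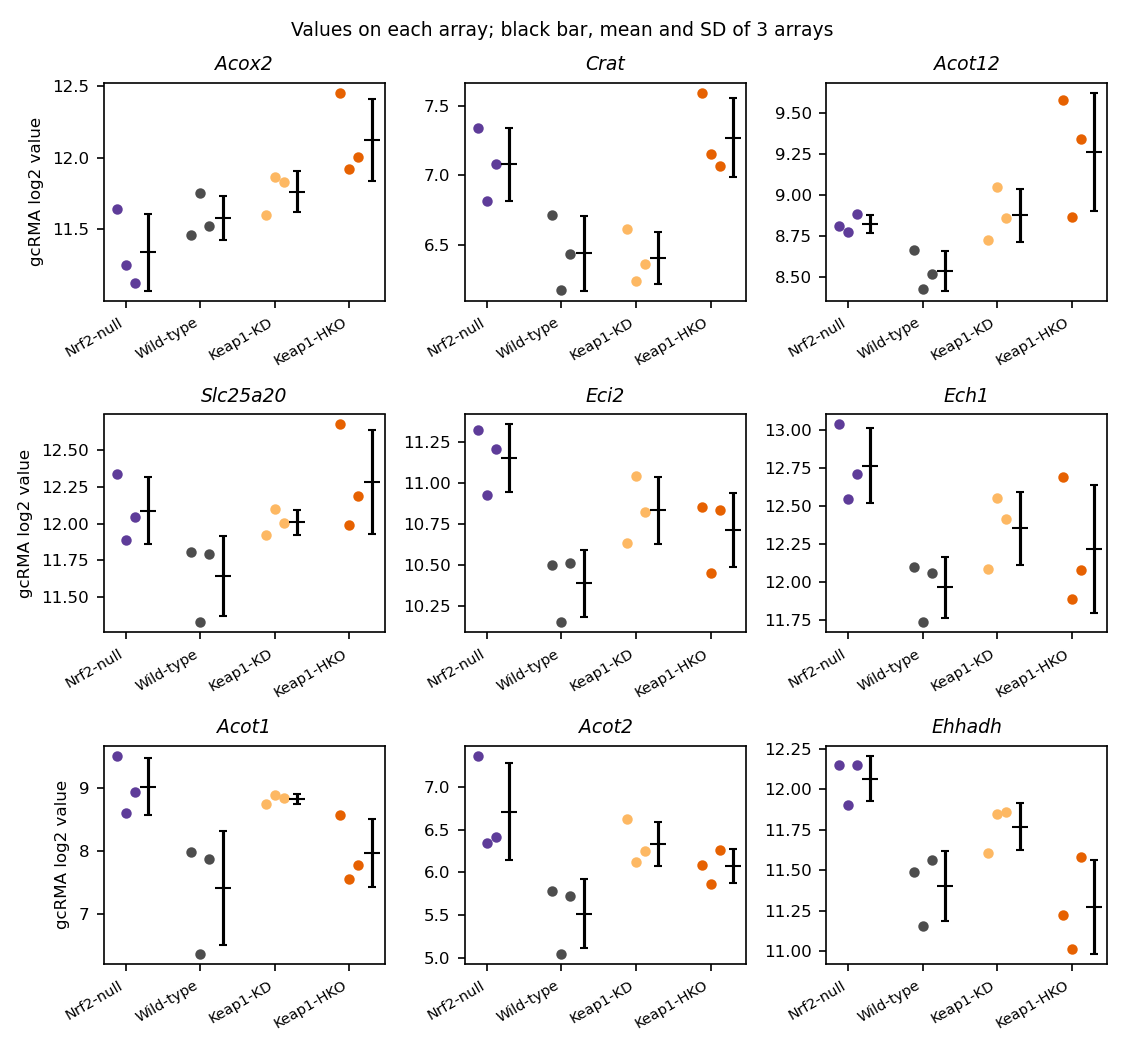
gcRMA log2 values of 9 genes on each array (points, 3 per genotype) with the mean and SD of each genotype (black). Acox2 is lowest in Nrf2-null and highest in Keap1-HKO livers, whereas Eci2, Ech1, Acot1, Acot2 and Ehhadh are highest in Nrf2-null livers.

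Ketone bodies and fuel choice were covered by 3 measured genes, and no genotype lay above wild-type for any of them. Acat1, the acetoacetyl-CoA thiolase, read 11.65, 11.86 and 12.05 in Keap1-HKO livers, below wild-type at 12.22, 12.56 and 12.37. The difference was -0.53 ± 0.21 log2 (limma adjusted p = 0.21), and the other probe sets of Acat1 differed by -0.46 and -0.65. Bdh1, which interconverts acetoacetate and beta-hydroxybutyrate, overlapped wild-type in every genotype, with differences of -0.05, 0.07 and -0.23 (SE 0.23). Pdk4, a kinase that shuts off pyruvate dehydrogenase when fat is burned, read 5.48, 5.42 and 6.58 in Nrf2-null, 6.31, 7.12 and 7.25 in wild-type, 6.74, 6.68 and 5.71 in Keap1-KD, and 5.37, 8.22 and 7.17 in Keap1-HKO livers. Those arrays overlapped in every genotype, the pooled SD within genotypes was 0.88 log2, and 8.22 and 7.17 were read on the arrays with the muscle and pancreas markers.

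The acyl-CoA thioesterases, which release free fatty acids from coenzyme A, and the pantetheinase Vnn1 had 5 measured genes. Acot1, the cytosolic long-chain thioesterase, read 9.52, 8.61 and 8.95 in Nrf2-null, 7.99, 6.37 and 7.88 in wild-type, 8.74, 8.89 and 8.85 in Keap1-KD, and 8.58, 7.56 and 7.79 in Keap1-HKO livers. The Nrf2-null and Keap1-KD arrays were clear of wild-type and the Keap1-HKO arrays were not. Its differences of 1.61 ± 0.43 in Nrf2-null and 1.41 ± 0.43 in Keap1-KD livers were the largest of the 42 genes in those comparisons (limma adjusted p = 0.27 and 1). Without wild-type replicate 2, which read lowest, they were 1.09 and 0.89, and the difference in Keap1-HKO livers was 0.04 in place of 0.56. Acot2, its mitochondrial paralog, read 7.36, 6.35 and 6.42 in Nrf2-null livers against 5.78, 5.05 and 5.73 in wild-type livers. Its mean intensity was 110 in Nrf2-null, 47.0 in wild-type, 81.5 in Keap1-KD and 67.7 in Keap1-HKO livers, so Acot2 entered the table through Nrf2-null livers alone and had to be higher there. Against an intensity of 100 it was at least 1.10-fold higher in Nrf2-null livers (limma adjusted p = 0.21), given as a description. Whether the probe sets of these paralogs cross-hybridise was not tested. Acot12, a thioesterase for acetyl-CoA, read 9.57, 8.87 and 9.34 in Keap1-HKO livers, above wild-type at 8.66, 8.42 and 8.52. The difference of 0.72 ± 0.18 log2 had the lowest adjusted p of the 42 genes in that comparison (limma, 0.053). Without both arrays that stood apart it was 0.57 ± 0.16 (limma adjusted p = 0.047). In that fit 5 of the 42 genes were higher and 4 lower at an unadjusted p under 0.05, and 10.9% of all genes were higher. Without wild-type replicate 2 the Acot12 difference was 0.67 ± 0.21 (limma adjusted p = 0.20). The second, dimmer probe set of Acot12 differed by 0.04. Vnn1, which recycles the pantothenate part of coenzyme A, read 10.23, 10.06 and 10.40 in Keap1-HKO livers, above wild-type at 9.96, 8.48 and 9.81, a difference of 0.81 ± 0.42 (limma adjusted p = 0.32), or 0.35 without wild-type replicate 2. Its Nrf2-null arrays, at 9.54, 8.67 and 9.94, overlapped wild-type and lay below Keap1-HKO. Acot8, the peroxisomal thioesterase, read 8.48 and 8.81 on the 2 arrays that stood apart and 7.63 to 7.86 on the other 10.

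Peroxisomal chain shortening, with 8 measured genes, held the only call. Acox2, the peroxisomal oxidase of branched chains and bile acid side chains, read 11.64, 11.25 and 11.13 in Nrf2-null, 11.46, 11.76 and 11.52 in wild-type, 11.60, 11.86 and 11.83 in Keap1-KD, and 12.45, 11.92 and 12.01 in Keap1-HKO livers. The Keap1-HKO arrays lay above all other arrays, and neighbouring genotypes below them overlapped. The slope was 0.25 ± 0.06 log2 per genotype step (95% interval 0.12 to 0.39, limma adjusted p = 0.024), and the differences from wild-type were -0.24, 0.18 and 0.55 (SE 0.19), none called. The trend lost its call without Nrf2-null replicate 2 or replicate 3 (adjusted p up to 0.089). Of these 8 genes, Acox2 and Ehhadh held the ARE core in the upstream sequences given above, and Hsd17b4 had no sequence to search. Over all roles 7.5% of the windows held the core, against 10.2% of all promoters. Ehhadh, the bifunctional enzyme of the next steps and a known PPARalpha target, was highest in Nrf2-null livers but did not fall stepwise. It read 12.15, 11.90 and 12.15 in Nrf2-null, 11.49, 11.15 and 11.56 in wild-type, 11.60, 11.85 and 11.86 in Keap1-KD, and 11.23, 11.01 and 11.58 in Keap1-HKO livers. All Nrf2-null arrays exceeded all other arrays. All Keap1-KD arrays exceeded the wild-type arrays, with a difference of 0.37 ± 0.18, or 0.24 without wild-type replicate 2, and no call. The Ehhadh difference from wild-type was 0.66 ± 0.18 in Nrf2-null livers (limma adjusted p = 0.27), and its slope was -0.20 ± 0.06 per step (adjusted p = 0.051). Scp2, a sterol carrier with peroxisomal thiolase activity, read 12.59 on Keap1-HKO replicate 1 and 14.31 on Nrf2-null replicate 1, and 14.66 to 15.37 on the other 10 arrays. Its difference of -1.16 ± 0.53 in Keap1-HKO livers (limma adjusted p = 0.28) was -0.39 without both arrays. Of the other 5 genes, the hydratase-dehydrogenase Hsd17b4 and the thiolase Acaa1b lay above wild-type in Nrf2-null livers, by 0.12 and 0.39, and Acaa1b in Keap1-KD livers, by 0.23. Without wild-type replicate 2 the Acaa1b differences were 0.25 and 0.10. In Keap1-HKO livers Pex11a, which acts in peroxisome division, lay above by 0.50, or 0.31 without wild-type replicate 2, and Crot, the carnitine octanoyltransferase, lay below, at -0.62, or -0.22 without both arrays. The membrane transporter Abcd3 overlapped wild-type in every genotype.

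Alpha-oxidation, which removes a carbon from branched phytanic acid, and epoxide hydrolysis were read through 3 genes. Phyh, the phytanoyl-CoA hydroxylase, read 14.61, 14.81 and 14.57 in Keap1-KD and 13.98, 14.59 and 14.59 in Keap1-HKO livers, all below wild-type at 14.82, 15.09 and 14.90. The differences were -0.28 ± 0.18 and -0.55 ± 0.18 (limma adjusted p = 1 and 0.14). Ephx2, the soluble epoxide hydrolase, read 14.42, 14.17 and 14.38 in Nrf2-null livers, above wild-type at 13.96, 13.65 and 13.95 and above every Keap1-HKO array. It differed from wild-type by 0.47 ± 0.15 in Nrf2-null livers (limma adjusted p = 0.43) and by -0.04 in Keap1-HKO livers. Hacl1, which cleaves the hydroxylated chain, overlapped wild-type throughout. All 3 genes had a slope below 0 over the genotype order, of -0.20 to -0.13 log2 per step, with no call.

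**Figure D4:**
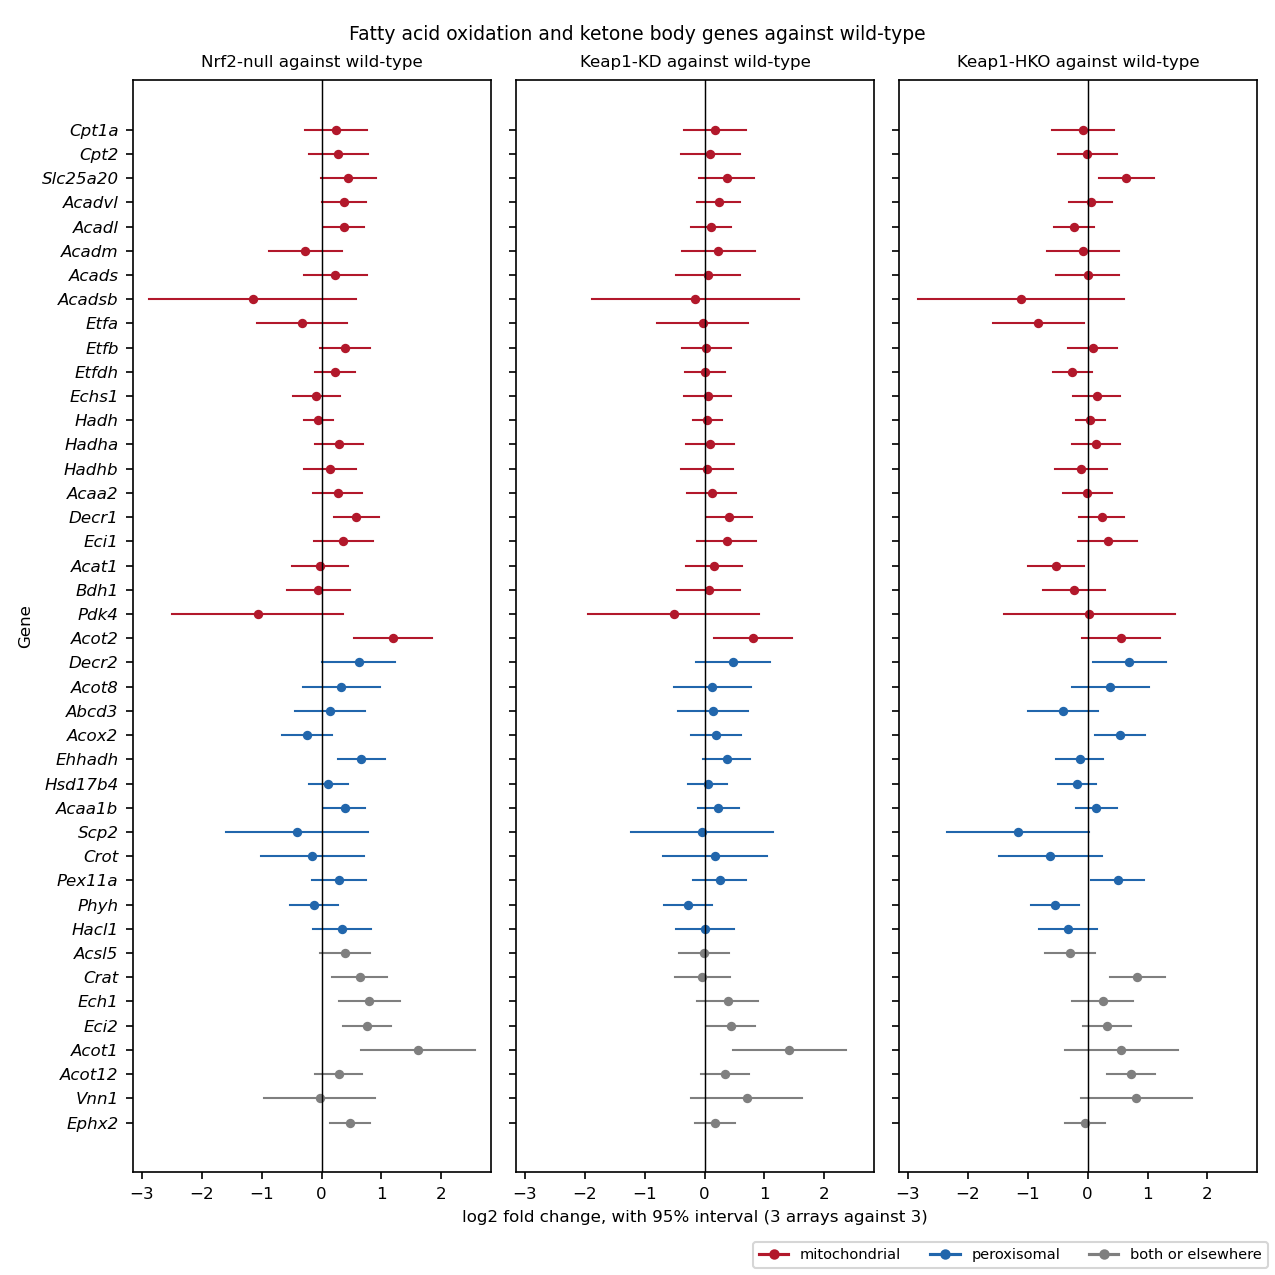
Log2 fold change from wild-type with its 95% interval (horizontal axis, 3 arrays against 3) for each of the 42 genes, in mitochondrial (red), peroxisomal (blue) and other or shared (grey) order, for the 3 comparisons. Intervals of Acadsb, Pdk4, Scp2 and Vnn1 are wide, and no gene was called in these 3 comparisons at an adjusted p under 0.05.

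The mitochondrial and peroxisomal genes were displaced from wild-type by amounts that overlapped between the arrays, given with no test since genes are not replicates. The median log2 difference from wild-type was 0.24 over the 22 mitochondrial and 0.22 over the 12 peroxisomal genes in Nrf2-null livers, 0.09 and 0.16 in Keap1-KD livers, and -0.00 and -0.15 in Keap1-HKO livers. The gap between the medians, mitochondrial minus peroxisomal, was 0.02, -0.07 and 0.15. Without Keap1-HKO replicate 1 the gap in Keap1-HKO livers was 0.00351. On single arrays the gap ran from -0.17 to 0.15 in Nrf2-null, -0.08 to 0.07 in wild-type, -0.12 to 0.04 in Keap1-KD and -0.09 to 0.31 in Keap1-HKO livers, so the genotypes overlapped. The 8 genes of both compartments or elsewhere had the highest medians, at 0.55, 0.36 and 0.44. Among them are Acot1, Eci2, Ech1, Crat, Acot12 and Vnn1, described above.

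**Figure D5:**
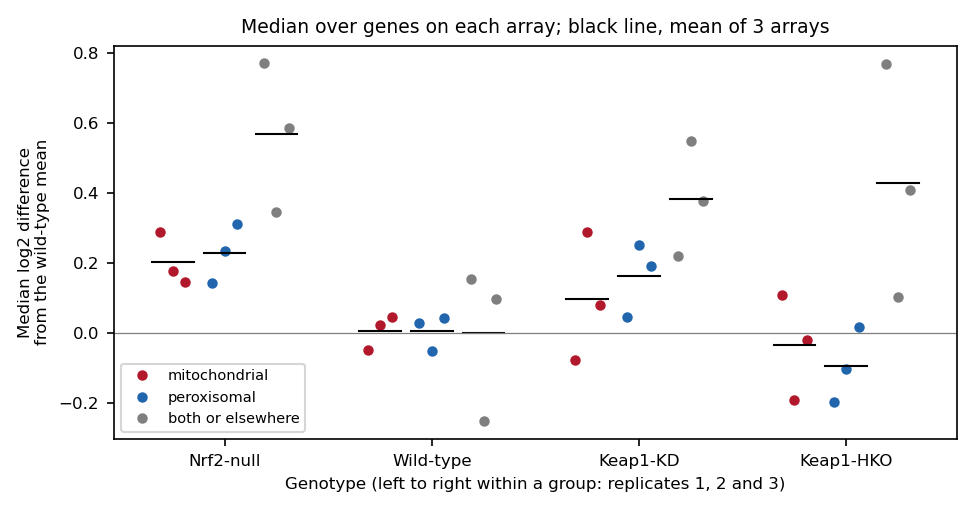
Median log2 difference from the wild-type mean (vertical axis) on each array for the mitochondrial (red), peroxisomal (blue) and other or shared (grey) genes, with the mean of 3 arrays (black line) for each genotype. The gap between mitochondrial and peroxisomal medians runs from -0.17 to 0.15 on the Nrf2-null arrays and reaches 0.31 on a Keap1-HKO array.

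Of 24 measured genes of a further fatty acid oxidation and ketone body list, of 38 listed, 2 rose and 1 fell in Keap1-HKO livers. Over all genes 3.94% were called in that comparison. Slc25a17, the peroxisomal carrier of cofactors such as coenzyme A, read 9.16, 8.79 and 8.74 in Keap1-HKO livers against 7.46, 7.64 and 7.68 in wild-type livers, a rise of 1.30 ± 0.15 log2 (limma adjusted p = 0.0014), and the Nrf2-null arrays read 7.10, 7.47 and 7.11. Acsm5, a medium-chain acyl-CoA synthetase, rose by 0.74 ± 0.17 (adjusted p = 0.037), a call lost under 12 of 23 alternatives. Nudt7, a peroxisomal coenzyme A hydrolase, fell by 0.84 ± 0.13 on the log2 scale (limma adjusted p = 0.0066), from 14.72 to 14.81 on the wild-type arrays to 13.68 to 14.06 on the Keap1-HKO arrays, a call lost in a fit of the 2 groups alone (adjusted p = 0.11). Along the genotype order 5 of the 24 rose (Slc25a17, Acsm5, Acsm1, Acad10 and Bdh2) and 2 fell (Nudt7 and Amacr). Over all genes 9.2% were called along the order. Calls along the order were lost under 7 of 22 alternatives for Bdh2, 5 of 21 for Acad10 and 1 of 22 each for Nudt7 and Amacr. Acad10 exceeded a mean intensity of 100 in Keap1-HKO livers alone, through which it entered the table, and its trend was not called with values raised to 100 (limma adjusted p = 0.23). The peroxisome biogenesis list, with 15 measured of 21, had 0 calls in the 3 comparisons and 1 in the trend, Lonp2, a peroxisomal protease, with a slope of 0.28 ± 0.05 per step (limma adjusted p = 0.0045), a call lost with its most variable probe set (adjusted p = 0.33).

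The list of PPARalpha, its partners and other known targets had 16 measured genes of 24, and its median difference from wild-type was 0.40 in Nrf2-null, 0.24 in Keap1-KD and 0.14 in Keap1-HKO livers. Ppara itself was not called, with differences of 0.31, 0.23 and -0.10 (SE 0.22). Cyp4a14, a fatty acid omega-hydroxylase, read 12.71, 9.38 and 12.68 in Nrf2-null livers against 6.25, 3.55 and 4.59 in wild-type livers. Its wild-type mean intensity, 37.3, lay under 100. Against 100 the mean intensity of the Nrf2-null arrays was at least 46.4-fold higher, given as a description. The limma call (adjusted p = 0.014) came from the log2 values, whose wild-type readings all lay under an intensity of 100. Cyp4a14 entered the table through Nrf2-null and Keap1-KD livers, the genotypes where it is high, so this call is not independent of the filter. The Keap1-KD arrays read 8.46, 8.73 and 9.45, also above wild-type, with no call (adjusted p = 0.77), and the Keap1-HKO arrays, at 4.17, 3.16 and 5.94, overlapped wild-type. The Cyp4a14 call in Nrf2-null livers was lost without any of Nrf2-null replicate 1 or 3 or wild-type replicate 2 or 3, and in a fit of the 2 groups alone, with adjusted p up to 0.20. In Keap1-HKO livers 1 gene of the list passed, Lpin2, a phosphatidate phosphatase, which was 0.70 ± 0.15 log2 higher (limma adjusted p = 0.027), a call lost under 8 of 23 alternatives, other probe sets included. Cd36, a fatty acid transporter, had a slope of 1.07 ± 0.18 per step (limma adjusted p = 0.0046) and read 10.44 on both Keap1-HKO arrays that carried muscle and pancreas markers, against 8.24 on replicate 1. The part of those markers in it was not tested.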

How the data were processed

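Total RNA from 12 mouse livers, 3 per genotype, was hybridised to Affymetrix mouse expression arrays, 1 per mouse. The deposited log2 values were made by the authors, who normalised the scanner files with gcRMA in R and dropped probe sets that exceeded an intensity of 100 in no group. Software versions were not given in the sources used here. Of 9622 probe sets, 8554 carried a single gene symbol in the platform annotation, and each of 5856 genes was read from its probe set of highest mean. Of the 42 genes, 13 had several probe sets, and for 6 of these the probe sets differed in sign in some comparison. Genes were tested with limma 3.58.1 (lmFit, eBayes, R 4.3.3) over all 4 genotypes, with Benjamini-Hochberg adjustment over 5856 genes and a threshold of 0.05. The trend used equally spaced genotypes, which the labels do not measure. Array number limits the precision, since each group holds 3. The fit was tested on simulated data. Promoter sequences were searched with Python.

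Named genes were those called, the 2 of lowest p per role, and 8 landmarks. Members and lists were chosen with earlier results of these data known. Replicate numbers were not taken as pairs in the main fit, and the labels do not say whether they pair the samples. Of 18 same-number pairs 15 had a correlation over 0.1, highest 0.787 between Nrf2-null and Keap1-HKO. Each comparison with wild-type had a pair under 0.1, at replicate 3 (lowest -0.16).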

Additional observations from a re-analysis of the deposited data

How the results depend on the processing

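In Nrf2-null livers 0 of the 42 genes were called under most alternatives, but array quality weights called 19 (18 higher; 23.5% of all genes were called), the replicate block 1, and the methods' Duncan's multiple range test, without adjustment over genes, 8 with log2 (5.4% of all genes) and 8 with un-logged values (5.05%). In Keap1-KD livers array quality weights called 8 (5.52% of all genes) and Duncan's test 4 and 2 (2.25% and 2.08%). In Keap1-HKO livers 1 gene was called at a minimum group mean of 200, 1 with values raised to 100, 2 after a second quantile normalization, 1 with the replicate block, 2 (Acot12, and Crat, which entered through the genotypes where it is high) without both replicates 1 of Keap1-HKO and Nrf2-null, and 3 and 4 by Duncan's test (12% and 11.5% of all genes), and leaving out single arrays gave 0 to 1. For the trend these settings gave 4 (minimum mean), 2 (raised values), 2 (mean of probe sets), 4 (trended robust eBayes), 6 (weights), 7 (replicate block) and 3 (both arrays left out), and single arrays 0 to 3. The main fit called 3.94% of all genes in Keap1-HKO livers and 9.2% for the trend. Where the share of all genes under a setting is not given here, its count is not a result about the group. The replicate numbers were not taken as pairs, so the block is given here only. Leaving out single arrays gave 12 to 20 genes above wild-type in Keap1-KD, 8 to 14 above in Keap1-HKO, 1 to 5 below in Nrf2-null (2 without both arrays) and 1 to 3 below in Keap1-KD, since fewer arrays overlap less. The gap between mitochondrial and peroxisomal medians in Keap1-HKO livers was 0.00351 without Keap1-HKO replicate 1, alone or with Nrf2-null replicate 1, and 0.00351 to 0.21 without single arrays. The Lpin2 trend reversed with the most variable probe set (slope -0.10, adjusted p = 0.64). Of 2896 values of 32 named genes under alternatives, 69 changed sign, the Lpin2 trend, called in the main fit, among them. The cause of these changes was not tested. With 3 arrays a group, the median SE of 0.21 log2 limits what could be called.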
